A study of Mus musculus with 11 samples.

Results

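The 32 genes described here encode the transcription factor p53, its main ubiquitin ligase and genes that p53 is known to activate or that act beside it. They were chosen by name, with no cut on a measured value but with earlier results of these data known, and each matched 1 of the 55486 genes in the deposited count table. By role they comprised p53 and Mdm2, 6 genes of cell cycle arrest, 11 of cell death, 5 of stress response and metabolism, 4 of DNA repair and nucleotide supply, 3 of mitosis and spindle, and the ubiquitin ligase adaptor Dda1. All libraries came from eosinophils of FVB/N mice with metastases of mammary tumours, which were sorted from blood 21 days after the start of treatment. In 7 mice the treatment was cisplatin, a platinum drug that crosslinks DNA, given with antibodies to PD1 and CTLA4, receptors that restrain T cells. For comparison, 4 mice were given a control antibody and nothing else. Because the 3 agents were given together, an effect of cisplatin cannot be told apart from one of the antibodies.

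In resting cells p53 is made and quickly destroyed, because Mdm2 marks it for the proteasome. DNA damage activates the kinases ATM and ATR, which free p53 from Mdm2, and p53 then binds paired response elements near its targets and raises their transcription. These targets halt the cell cycle, repair DNA, alter metabolism or start apoptosis, and Mdm2 is itself a target, which closes a feedback loop. p53 is controlled mainly as a protein, so its mRNA level is a poor measure of its activity. Blood eosinophils are mature, non-dividing granulocytes that leave the bone marrow and survive only briefly in the circulation.

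Library totals were 5356118 to 8016658 counts in treated and 3733156 to 6721060 in control libraries. Levels are given as CPM, the counts relative to the library total after TMM scaling, a correction for library composition. Eosinophil markers such as Siglecf and Ccr3 were present, with 10 of 10 markers detected in each group and a summed level of 2318 to 8862 CPM in treated and 5534 to 7454 CPM in control libraries. Control 3 and control 4 stood apart, with haemoglobin genes at 28.2% and 20.1% of counts against 0.165% to 4.42% in the other 9 libraries. Their summed erythroid markers (10 of 10 detected in each group) reached 443652 and 302289 CPM, whereas control 1 and control 2 had 9502 and 1578 CPM and treated libraries 12776 to 46978 CPM. Markers of monocytes and macrophages (15 of 15 detected in each group) summed to 2099.8 to 17102 CPM in treated and 1066 to 19986 CPM in control libraries, and those of B cells (14 of 14 in each) to 1403 to 6042 and 823 to 2858 CPM. The sort took cells low in Ly6g, a neutrophil surface protein, and of 13 neutrophil markers 11 were detected in treated and 13 in control libraries (4849 to 14377 and 5873 to 16327 CPM). Most of that sum was Retnlg, at 4201 to 15651 CPM over the 11 libraries, while Ly6g itself was at 0 in all but treated 1, control 1 and control 3. The part of these cell types in the levels below was not tested. The library identifiers begin with 19 in all treated and 20 in all control libraries, and whatever these digits mark cannot be told apart from treatment. The letters KDV follow in treated 1 and all controls and VIS in treated 2 to treated 7.

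The promoters of 4 members carried a close match to the p53 response element, and these sequences are shown because p53 acts on its direct targets through such elements. RefSeq promoter windows (GRCm38.p6, 250 bases before to 50 after each transcription start) were at hand for 25 of the 32 genes. They were searched for the full p53 consensus, a pair of adjoining 10-base units that reads the same on both strands, with the C and G core of each unit required. At up to 2 other mismatches in 20 bases the element was found for Cdkn1a, Ccng1, Gtse1 and Ckap2. Over all genes with a window it was found for 0.392% of 27025, and in 0.326% of all 32851 promoter windows. At up to 3 mismatches it was found for 9 of the 25 genes, adding Trp53, Bbc3, Aen, Sesn1 and Tigar, against 1.63% of all genes and 1.38% of all windows. The matches are shown 5′ to 3′ on the gene's strand with the element in capitals, and all but that of Gtse1 with 20 bases of flank on each side. The windows are chr17:29090908-29090967 (plus strand) for Cdkn1a, chr11:40755442-40755501 (minus strand) for Ccng1, chr8:22185983-22186042 (minus strand) for Ckap2 and chr15:85859945-85859964 (plus strand) for Gtse1.
Cdkn1a: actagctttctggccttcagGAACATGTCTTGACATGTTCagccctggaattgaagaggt
Ccng1: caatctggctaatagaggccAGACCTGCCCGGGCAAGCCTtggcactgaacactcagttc
Ckap2: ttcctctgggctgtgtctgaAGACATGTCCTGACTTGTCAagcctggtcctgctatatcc
Gtse1: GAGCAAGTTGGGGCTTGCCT
The element began 51 bases before a RefSeq start of Cdkn1a, 195 before one of Ccng1, 203 before one of Ckap2 and 1 before one of Gtse1. A gene can have more than 1 RefSeq start, as the 32851 windows of 27025 genes show. Each distance is to the start of the window that held the match, which need not be the main start of the gene. Nearly all of the Gtse1 element thus lay after that RefSeq start of Gtse1. In the gene coordinates of the count data Gtse1 begins further upstream, at chr15:85859745, so there its element lies inside the gene. The elements of Cdkn1a, Ccng1 and Gtse1 departed from the consensus at 1 base and that of Ckap2 at 2. A match describes the sequence only, and p53 binding was not measured.

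The study asked how the combined treatment altered blood eosinophils, and for p53 the comparison showed no member past the test in either direction. In the quasi-likelihood test of edgeR 0 of the 28 members tested were called higher and 0 lower (Benjamini-Hochberg adjusted p of 0.05), as for all 11389 genes tested, of which 0% were called in each direction. Eda2r, Ckap2, Psrc1 and Gtse1 did not pass the filter on low counts. At an unadjusted p of 0.05, 2 members (Ccng1 and Ei24) were higher and 0 lower, against 3.7% and 3.13% of all genes. DESeq2 called 0 of 29 members with an adjusted p, while it called 0.466% of genes higher and 0.171% lower. The treated and control libraries overlapped in all 28 members, whereas 0.509% of all tested genes lay higher and 0.43% lower without overlap. Of the 28 log2 fold changes (treated minus control) 19 were above 0, against 51.8% of all genes, with a median of 0.22 against 0.03. Without control 3 and control 4, 0 members passed, and the median was 0.18 against 0.08 for all genes. In that fit 3 members were past an unadjusted p of 0.05 in edgeR. The share of all genes past it was not counted there, so this number has no background. The member with the smallest adjusted p was then Phlda3, which had 0 counts in both remaining controls. In bulk samples a lower level from fewer cells of a type and one from less RNA per cell cannot be told apart.

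**Figure D1:**
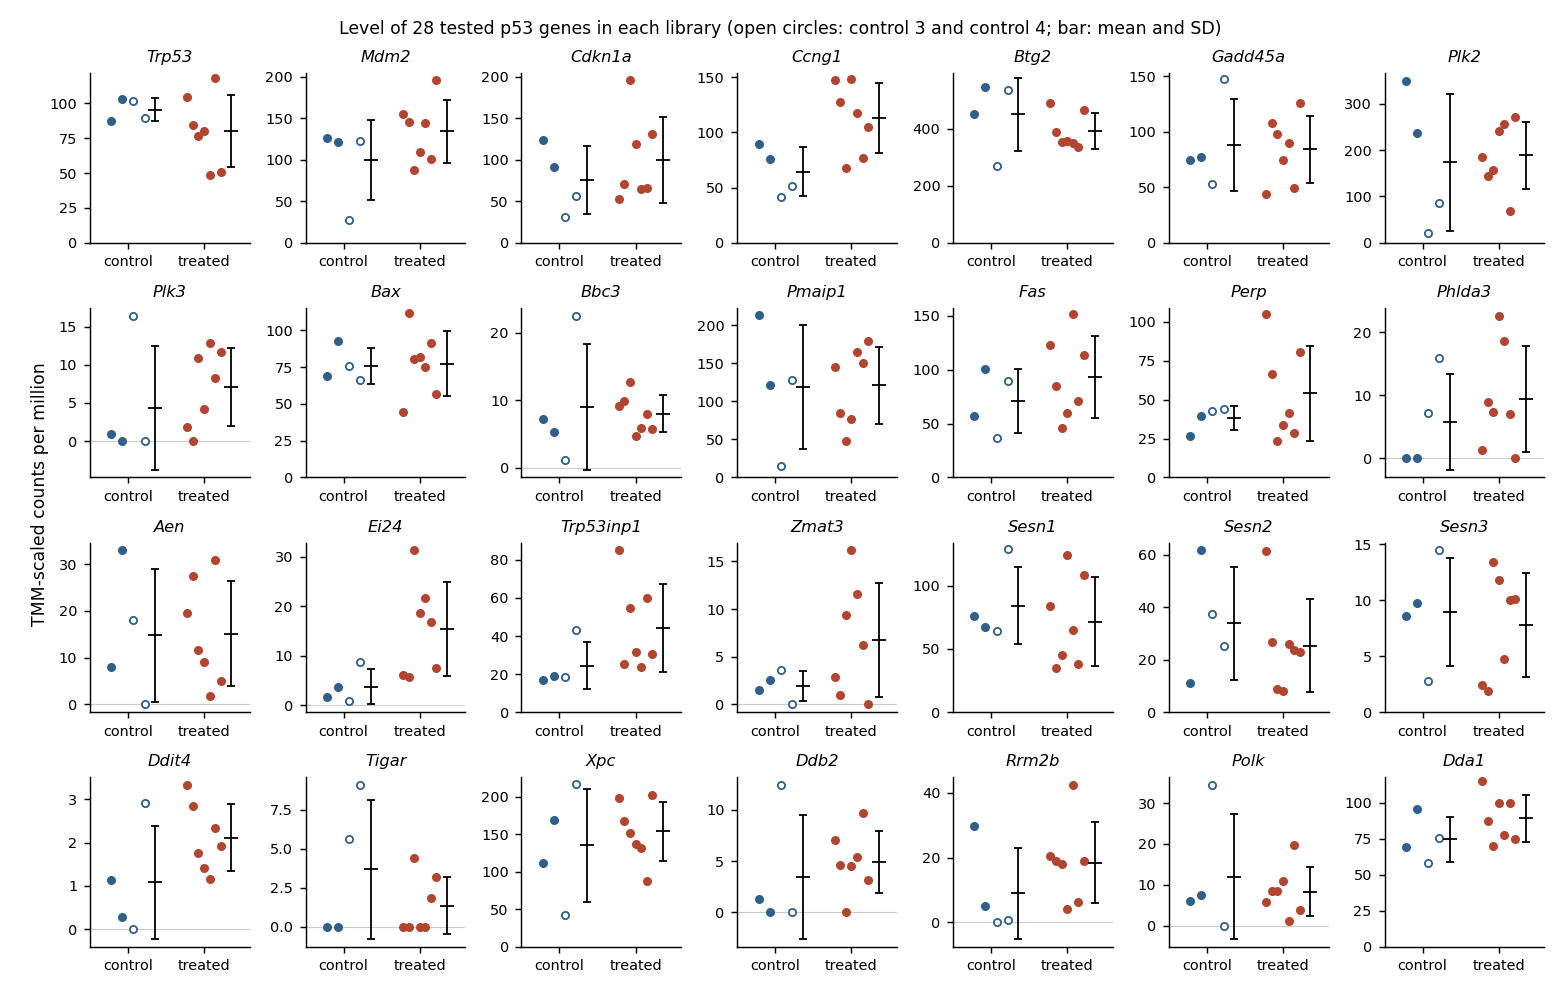
TMM-scaled CPM (vertical axis, linear) of the 28 tested p53 genes, 1 point per library, for the 4 control (blue) and 7 treated (red) libraries, with the mean and SD (n = 4 and n = 7) as a bar. The groups overlap in every panel, and for Mdm2 and Plk2 control 3 (the first open circle) is the lowest of all 11 libraries.

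The precision of these comparisons depended on abundance. For the 15 members that averaged at least 40 CPM in at least 1 group, the log2 fold changes ran from -0.25 to 0.87. Their 95% intervals reached a median of 0.77 to either side of the estimate on the log2 scale, against 2.2 for the 13 less abundant members. For 8 members the whole interval lay below a log2 fold change of 1, and for the other 20 it reached that value. A log2 fold change of 1 was thus within the error for most of the list.

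Trp53 and its ligase were both well expressed. In treated libraries Trp53, the gene of p53 itself, had a lowest of 48.4, a median of 80.2 and a highest of 118 CPM. The control libraries 1 to 4 stood at 87.3, 103, 102 and 89.8 CPM. The controls lay close together and inside the treated range, whose low end was treated 5 and treated 7, at 48.4 and 50.5 CPM. The log2 fold change of Trp53 was -0.25 ± 0.26 (SE; 95% interval -0.81 to 0.32; adjusted p = 0.931, edgeR), so the interval excludes a rise of 1 on the log2 scale. Mdm2, which encodes the ligase that destroys p53 and is itself a p53 target, had a lowest of 87.4, a median of 145 and a highest of 196 CPM in the treated group. Its control values were 126, 122, 27.2 and 123 CPM. Control 3 was far below all other libraries, and the other 3 controls lay within the treated range. The log2 fold change of Mdm2 was 0.43 ± 0.36 (SE; 95% interval -0.34 to 1.20; adjusted p = 0.901, edgeR), and without control 3 and control 4 it was 0.15.

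Of the 6 genes of cell cycle arrest, 4 had a log2 fold change above 0 (against 51.8% of all tested genes), with a median of 0.26. Among them Cdkn1a and Ccng1 are those whose response elements are shown above. Cdkn1a encodes p21, an inhibitor of cyclin-dependent kinases and the classical readout of p53 activity. It had a lowest of 53.1, a median of 70.3 and a highest of 196 CPM in treated libraries, and 124, 91.3, 31.3 and 56 CPM in control 1 to control 4. The highest value was that of treated 3, while 4 of the 7 treated libraries lay below control 2. The log2 fold change was 0.40 ± 0.42 (SE; 95% interval -0.49 to 1.29; adjusted p = 0.93, edgeR), and it turned to -0.070 without control 3 and control 4. With the identifier letters as a factor it was -0.51, a value that rests on treated 1 against the controls. Ccng1, which encodes cyclin G1, a partner of protein phosphatase 2A that feeds back on Mdm2, had a lowest of 68.1, a median of 117 and a highest of 148 CPM in the treated group. Its control values were 89.7, 75.4, 41.3 and 51.3 CPM. In 5 of 7 treated libraries it exceeded all 4 controls, and treated 3 and treated 6 lay among them. Its log2 fold change of 0.80 ± 0.29 (SE; 95% interval 0.17 to 1.43) had an unadjusted p of 0.016 and an adjusted p = 0.626 (edgeR), and without control 3 and control 4 it was 0.48.

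The other 4 arrest genes showed no shared direction. Btg2, an antiproliferative cofactor of mRNA decay, was the most abundant member per length of transcript, at 151 CPM per kilobase over all libraries, followed by Bax at 48.8 and Gadd45a at 48.6. Its level had a lowest of 337, a median of 358 and a highest of 492 CPM in treated libraries, against 451, 547, 271 and 537 CPM in the controls. Control 3 was the lowest of all 11 libraries, control 2 and control 4 exceeded all 7 treated libraries, and control 1 lay within the treated range. The log2 fold change of Btg2 was -0.20 ± 0.22 (SE; 95% interval -0.68 to 0.27; adjusted p = 0.932, edgeR). Gadd45a, a stress sensor that binds PCNA, stood at 84.3 ± 30.2 CPM (SD, n = 7) with treatment and 88.1 ± 41.1 CPM (SD, n = 4) without. Plk2, a polo-like kinase, ran from 22 CPM in control 3 to 349.7 CPM in control 1, and treated libraries stood at 69.5 to 271 CPM. Its log2 fold change went from 0.12 to -0.60 without control 3 and control 4. Plk3, a related kinase, was detected in 6 of 7 treated and 2 of 4 control libraries and reached 12.9 CPM in treated 5 and 16.4 CPM in control 3.

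Of the 10 tested genes of cell death, 9 had a log2 fold change above 0 (against 51.8% of all tested genes), with a median of 0.45, and 0 passed the test. Among the 9, Bax, Pmaip1 and Aen lay close to 0, at 0.027, 0.020 and 0.025. Without control 3 and control 4, Bax, Pmaip1 and Aen turned below 0 and Bbc3 above. The genes of cell death included Bax and the BH3-only genes Pmaip1 and Bbc3, all of mitochondrial apoptosis. For these, as for all tested members, the control and treated ranges overlapped. Bax, the pore-forming protein of the outer mitochondrial membrane, had a lowest of 44.8, a median of 80.4 and a highest of 112 CPM in treated libraries. Its control values were 68.9, 93.1, 75.7 and 66.2 CPM. The 4 controls lay inside the treated range, and the log2 fold change was 0.027 ± 0.26 (SE; 95% interval -0.53 to 0.59; adjusted p = 0.992, edgeR). Pmaip1, which encodes the BH3-only protein Noxa, had a lowest of 47.7, a median of 145 and a highest of 179.7 CPM in the treated group, against 213, 122, 14.4 and 128 CPM in the controls. The controls spanned a wider range than the treated libraries, with control 3 lowest and control 1 highest of all 11. The difference on the log2 scale was 0.020 ± 0.51 (SE; 95% interval -1.08 to 1.12; adjusted p = 0.997, edgeR). Bbc3, which encodes the BH3-only protein Puma, was low, at 8.03 ± 2.79 CPM (SD, n = 7) with treatment and 9.05 ± 9.33 CPM (SD, n = 4) without. The highest value of Bbc3 was that of control 4, at 22.5 CPM.

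Of the death receptors and membrane proteins, Fas and Perp were expressed and Eda2r was not detected. Fas, the receptor of Fas ligand, stood at 92.8 ± 38 CPM (SD, n = 7) with treatment and 70.8 ± 29.5 CPM (SD, n = 4) without. Its log2 fold change was 0.39 ± 0.36 (SE; adjusted p = 0.916, edgeR). Perp, a desmosomal membrane protein, had a lowest of 23.6, a median of 41.4 and a highest of 105 CPM in the treated group, and 26.6, 39.3, 42.5 and 44 CPM in the controls. The controls lay close together, and only treated 1, treated 2 and treated 7 exceeded them. On the log2 scale the difference was 0.51 ± 0.42 (SE; adjusted p = 0.9, edgeR). Eda2r, a receptor of ectodysplasin A2, had 0 counts in all 11 libraries, which allows a level of up to 0.0428 CPM when 3 counts over all libraries are taken as the limit.

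Ei24 and Trp53inp1 had the largest differences among the death genes that were detected in every library. Ei24, an endoplasmic reticulum protein, had a lowest of 5.69, a median of 16.9 and a highest of 31.4 CPM in treated libraries. Its control values were 1.65, 3.68, 0.801 and 8.72 CPM. The highest control, control 4, exceeded treated 1, treated 2 and treated 7, while the other 4 treated libraries lay above all controls. The log2 fold change was 2.06 ± 0.81 (SE; 95% interval 0.32 to 3.80), with an unadjusted p of 0.024 and an adjusted p = 0.634 (edgeR). With the identifier letters as a factor it was 0.74, a value that rests on treated 1. Ei24 lies at chr9:36779159-36797393 (GRCm38, minus strand). A gene on the opposite strand, Gm26787, overlaps its exons, and since Smart-seq2 reads do not carry the strand, reads of the 2 genes cannot be told apart there. Trp53inp1, a p53 cofactor that also acts in autophagy, had a lowest of 23.5, a median of 31.4 and a highest of 85.5 CPM in the treated group, against 17, 19, 18.4 and 42.9 CPM in the controls. All 7 treated libraries exceeded control 1 to control 3, and control 4 lay among the treated ones. Its log2 fold change was 0.87 ± 0.45 (SE; 95% interval -0.082 to 1.82; adjusted p = 0.749, edgeR), and 1.33 without control 3 and control 4.

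The other 3 death genes were low and were missed in some libraries. Zmat3, an RNA-binding zinc finger protein, had a lowest of 0, a median of 6.2 and a highest of 16.2 CPM in treated and 1.52, 2.55, 3.61 and 0 CPM in control libraries. It was detected in 6 of 7 treated and 3 of 4 control libraries, and its log2 fold change was 1.80 ± 1.37 (SE; 95% interval -1.13 to 4.73; adjusted p = 0.881, edgeR). Phlda3, a pleckstrin homology protein that competes with AKT for membrane lipids, had 0 counts in treated 7, control 1 and control 2. It stood at 7.21 and 16 CPM in control 3 and control 4 and at up to 22.6 CPM in treated 4. The log2 fold change of Phlda3 was 0.72 ± 1.49 (SE; adjusted p = 0.963, edgeR), and 0.30 to 2.07 when 1 library was left out. With the identifier letters as a factor it was -2.06, a value that rests on treated 1. Aen, a nuclease of apoptotic DNA, ran from 1.74 to 31 CPM in treated libraries and from 0 to 33 CPM in the controls.

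**Figure D2:**
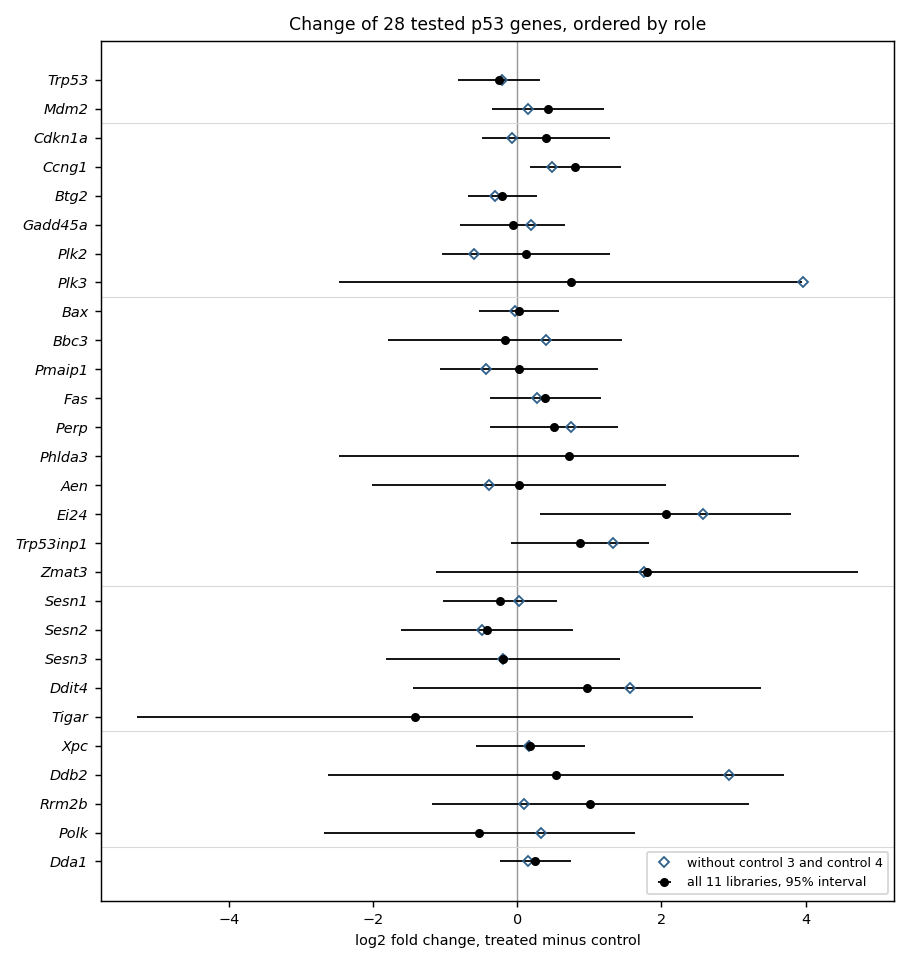
Log2 fold change (treated minus control, horizontal axis) of the 28 tested p53 genes in order of role, with 95% intervals from all 11 libraries (black) and the value without control 3 and control 4 (blue diamonds, left out for Phlda3 and Tigar, which then have no control counts). The intervals of Ccng1 and Ei24 lie above 0 before adjustment for multiple tests and those of the other 26 genes cross 0.

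Of the 5 genes of stress response and metabolism, 1 had a log2 fold change above 0 (against 51.8% of all tested genes), with a median of -0.24. The sestrins, which restrain the growth kinase mTORC1 under stress, lay below 0 together but within their errors. Sesn1 had a lowest of 34.9, a median of 64.6 and a highest of 124 CPM in treated libraries, against 75.8, 67.6, 64.1 and 129 CPM in the controls. Treated 2, treated 3 and treated 6 lay below all 4 controls and the other 4 treated libraries among them, and the log2 fold change was -0.24 ± 0.37 (SE; adjusted p = 0.95, edgeR). Sesn2 stood at 25.4 ± 17.8 CPM (SD, n = 7) with treatment and 33.9 ± 21.5 CPM (SD, n = 4) without, with treated 1 and control 2 both near 61.6 CPM. Sesn3 was lower, at 7.79 ± 4.66 and 8.93 ± 4.82 CPM. Ddit4, another inhibitor of mTORC1, was low, with 8 to 27 counts in each treated library and 9, 2, 0 and 8 counts in control 1 to control 4. Tigar, a phosphatase that diverts glucose carbon from glycolysis, had counts in 3 of 7 treated and 2 of 4 control libraries and -1.42 ± 1.80 (SE) as its log2 fold change.

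Of the 4 DNA repair genes, 3 had a log2 fold change above 0 (against 51.8% of all tested genes), with a median of 0.36. Xpc was abundant and the other 3 were low. Xpc encodes the damage sensor of nucleotide excision repair, the pathway that also removes platinum adducts, and had a lowest of 87.6, a median of 152 and a highest of 202 CPM in treated libraries. Its control values were 112, 169, 42.9 and 217 CPM. Control 3 was the lowest and control 4 the highest of all 11 libraries, and the log2 fold change was 0.18 ± 0.36 (SE; 95% interval -0.58 to 0.95; adjusted p = 0.956, edgeR). Ddb2, which hands damaged sites to Xpc, was detected in 6 of 7 treated libraries at up to 9.71 CPM and in 2 of 4 controls, of which control 3 was the highest library at 12.4 CPM. Rrm2b, the p53-inducible subunit of ribonucleotide reductase that supplies nucleotides for repair, ran from 4.01 to 42.5 CPM in treated libraries and stood at 29.8, 5.09, 0 and 0.727 CPM in the controls. Its log2 fold change of 1.02 was 0.10 without control 3 and control 4 and 3.13 without control 1, whose level was the highest of the controls. Polk, a polymerase that copies past DNA lesions, reached its highest level in control 3, at 34.5 CPM, against 1.16 to 19.8 CPM in treated libraries.

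The mitotic members were close to absent. Ckap2, a spindle protein, had 43 counts in treated 3 and 0 in the other 10 libraries. Gtse1, which shuttles p53 out of the nucleus in dividing cells, had 5 counts in treated 3 and 21 in treated 6 and 0 elsewhere, and Psrc1, a spindle regulator, had 9 counts in treated 1, 38 in treated 3 and 7 in control 2. Over the 4 control libraries, 0 counts of Ckap2 and Gtse1 allow up to 0.149 CPM. Both genes thus carry a close response element and were not detected in most libraries. The list of 18 dividing cell markers was likewise low, with 18 detected in treated and 16 in control libraries and a summed level of 27.4 to 207 CPM in treated and 32.4 to 145 CPM in control libraries. Dda1, an adaptor of the DDB1 ubiquitin ligase complex, was by contrast detected in every library, at 89.2 ± 16.3 CPM (SD, n = 7) with treatment and 74.8 ± 15.6 CPM (SD, n = 4) without. For Dda1 the log2 fold change was 0.25 ± 0.23 (SE; 95% interval -0.23 to 0.74; adjusted p = 0.912, edgeR).

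Control 3 had the lowest value of all 11 libraries in 13 of the 28 tested members, while it was the lowest in 20.8% of all tested genes. These 13 included Mdm2, Cdkn1a, Ccng1, Plk2, Pmaip1 and Xpc. It was also the library with the most haemoglobin (28.2% of counts) and the fewest detected genes (10775), and the part of either in these values was not tested. Control 3 was also the highest library in 3 members (15.1% of all genes) and control 4 in 6 (10.5%), which were Gadd45a, Bbc3, Sesn1, Sesn3, Tigar and Xpc. The mean log2 CPM over the 28 members was 4.44 to 4.87 in treated and 3.87 to 4.12 in control libraries, and over all tested genes 3.82 to 4.24 and 3.38 to 4.09. No test was made of this mean, in which low members with 0 counts in some libraries weigh as much as abundant ones. In the summed CPM of the 32 genes, where abundant members dominate, the groups overlapped, at 1599 to 2286 CPM in treated and 1041 to 2089 CPM in control libraries. Between 26 and 30 of the 32 genes were detected in each treated library and between 23 and 26 in each control library. Over all genes of the series, 12639 to 15557 genes were detected in treated and 10775 to 14550 in control libraries.

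**Figure D3:**
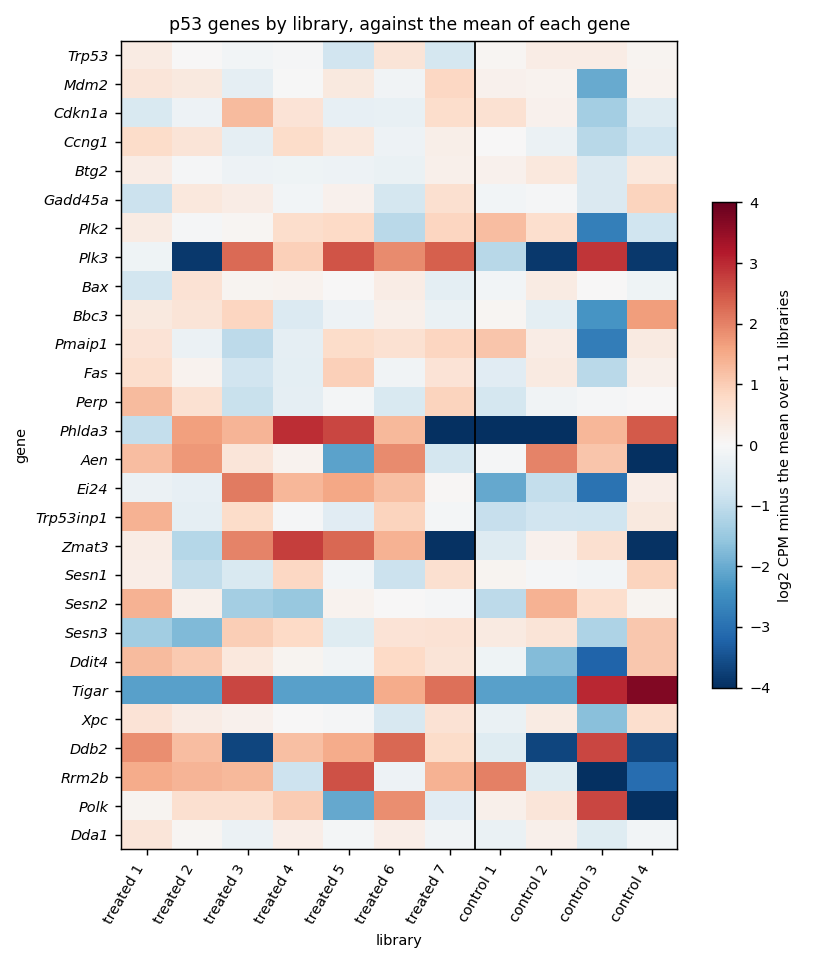
Log2 CPM of the 28 tested p53 genes (rows) in the 7 treated and 4 control libraries (columns), each minus the mean of that gene over the 11 libraries; red is above and blue below the mean, and the colour scale ends at 4 on either side. Control 3 holds the lowest value in 13 of the 28 genes, and the strongest colours belong to low genes such as Plk3, Phlda3, Tigar and Ddb2 that have 0 counts in some libraries.

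Within the treated group none of the 5 relations tested between Cdkn1a and other members passed the test. Across the 7 treated libraries the log2 CPM of Cdkn1a had a Pearson r of -0.355 with Mdm2 (exact permutation p = 0.436, Spearman rho -0.286, exact permutation p = 0.556) and of -0.464 with Ccng1 (exact permutation p = 0.292, rho -0.429, exact permutation p = 0.354). With Bax it was 0.0966 (exact permutation p = 0.836, rho 0.214, p = 0.662), with Btg2 -0.170 (exact permutation p = 0.694, rho -0.0357, p = 0.964) and with Phlda3 -0.124 (exact permutation p = 0.787, rho 0, p = 1). After adjustment over the 5 relations all Pearson values had an exact permutation p of 0.836 and all Spearman values one of 1, two-sided. Without the 2 libraries farthest from the median of Cdkn1a the r values were -0.587 for Mdm2, 0.253 for Ccng1, 0.421 for Bax, -0.495 for Btg2 and 0.731 for Phlda3. Within the 6 VIS libraries they were -0.258, -0.318, -0.449, 0.270 and -0.317 in the same order. Treated 3, which had the highest Cdkn1a, had the lowest Mdm2, Ccng1, Pmaip1 and Fas of the treated group. It also had the lowest summed eosinophil markers of any library, at 2318 CPM, and the lowest Ccr3, at 1030 CPM. The monocyte and macrophage markers of treated 3 did not move together. Its C1qb was the highest of any library, at 488 CPM, and its Csf1r the lowest of any, at 364 CPM. Among B cell markers its Cd79a was the highest of any library, at 577 CPM. Its Ighm, at 2467 CPM, was below that of treated 4, at 3245 CPM. The summed markers of monocytes and macrophages in treated 3 were at the treated median of 6721 CPM. The part of other cell types in its values was not tested.

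**Figure D4:**
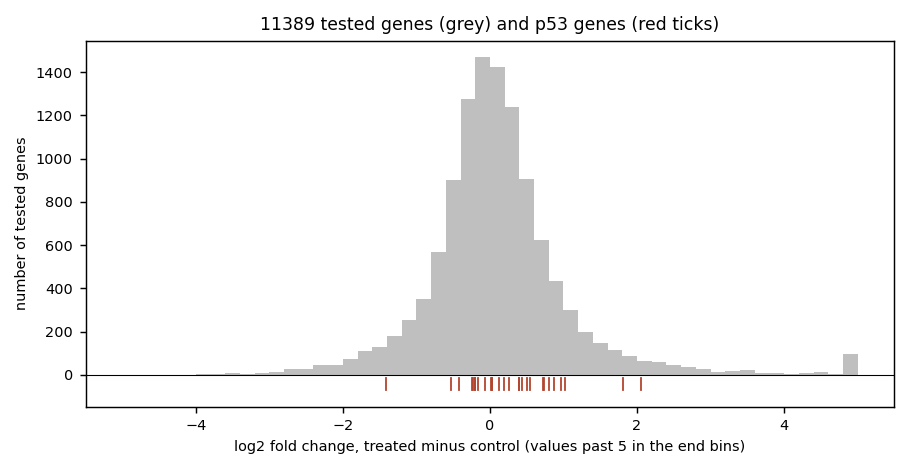
Number of genes (vertical axis) by log2 fold change, treated minus control (horizontal axis, values past 5 on either side in the end bins), for all 11389 tested genes in grey, with the 28 tested p53 genes as red ticks below the axis. The ticks run from -1.42 for Tigar to 2.06 for Ei24 and most lie in the central mass, with a median of 0.22 against 0.03 for all genes.

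Further targets of the pathway, chosen from textbook knowledge, held no gene past the edgeR test either. Of 36 other p53 targets 30 were tested, 0 passed in either direction, and the median log2 fold change was -0.066. At an unadjusted p of 0.05, 1 was higher (Apaf1) and 3 lower (Triap1, Ninj1 and Rps27l), against 3.7% and 3.13% of all tested genes; Apaf1, Triap1 and Rps27l are named after their values were seen. The 3 with the highest mean CPM, not corrected for length, were Ninj1, a protein of membrane rupture, at 261 ± 32 CPM (SD, n = 7) with treatment and 384 ± 82.8 CPM (SD, n = 4) without, Cd82, a tetraspanin, at 199 ± 46.7 and 234 ± 35.3 CPM, and Thbs1, a thrombospondin of platelets and matrix, at 144 ± 34.6 and 326 ± 391 CPM. The log2 fold change of Ninj1 was -0.56 ± 0.19 (SE; 95% interval -0.97 to -0.14; unadjusted p = 0.012, adjusted p = 0.626, edgeR), and -0.26 without control 3 and control 4. The controls of Thbs1 were 22.3, 1.98, 818 and 462 CPM, and its log2 fold change turned from -1.18 to 3.58 without control 3 and control 4. In those 2 libraries the summed platelet markers (11 of 11 detected in each group) were 12013 and 9852 CPM, whereas control 1 and control 2 had 299 and 158 CPM and treated libraries 861 to 3206 CPM, and their part in this value was not tested. Triap1, an inhibitor of apoptosis induced by p53, had a lowest of 25.6, a median of 32.9 and a highest of 42.9 CPM in treated libraries and 53, 61.6, 72.9 and 61.8 CPM in the controls. It was the only gene of the 30 whose groups did not overlap (0.43% of all tested genes lay lower without overlap) and the only one of 29 that DESeq2 called (0.171% of all genes lower). Its log2 fold change was -0.87 ± 0.26 (SE; adjusted p = 0.626 in edgeR and adjusted p = 0.020 in DESeq2).

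Of 29 regulators of p53, 24 were tested, 0 passed the edgeR test, and the median log2 fold change was 0.24. At an unadjusted p of 0.05, 2 were higher (Ep300, an acetyltransferase of p53, and Banp, both named after their values were seen) and 0 lower, against 3.7% and 3.13% of all tested genes. Mdm4, the partner of Mdm2 that masks the activation domain of p53, stood at 196 ± 31.8 CPM (SD, n = 7) with treatment and 186 ± 10.9 CPM (SD, n = 4) without. For Mdm4 the log2 fold change was 0.073 ± 0.19 (SE; 95% interval -0.33 to 0.47; adjusted p = 0.971, edgeR). Brd7, a bromodomain cofactor of p53, stood at 95.8 ± 31.4 and 82 ± 32.3 CPM, and Rchy1, another ubiquitin ligase of p53, at 80.8 ± 24.8 and 108 ± 37.9 CPM. The damage kinases upstream of p53, which the rule for named genes did not pick, were low. Atm stood at 3.34 ± 3.21 CPM with treatment and 8.01 ± 9.85 CPM without and Atr at 3.26 ± 2.68 and 10.6 ± 9.49 CPM, and neither passed the test (edgeR, adjusted p = 0.94 and adjusted p = 0.802).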

How the data were processed

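RNA of eosinophils sorted from mouse blood (live CD45+ CD3- CD11b+ F4/80+ cells, Ly6g low and side scatter high) was sequenced from Smart-seq2 libraries, 1 per mouse. The authors deposited 1 table of raw counts per Ensembl gene. The submitters' processing notes name bcl2fastq 2.20.0.422, HISAT2 2.10, SAMtools 1.15.1 and the build GRCm38, and the read counter, strand setting and annotation release were not given in the sources used here. A row naming no gene held 0 counts and was left out. All 32 members had the coordinates of GENCODE M21, which gave exon lengths. Exons of 8 members (Cdkn1a, Gadd45a, Plk3, Ei24, Tigar, Ddb2, Rrm2b and Dda1) overlap a gene on the opposite strand and those of Bax one on the same strand, so their counts may include its reads. No libraries of a group were duplicates (chi-square per gene 55.2 or more). Reads carry no molecular identifiers, so limits from 0 counts cover counting error only.

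Groups follow the labels. Counts were tested with edgeR 4.0.16 (R 4.3.3) by the robust quasi-likelihood test with TMM scaling, filterByExpr and a threshold of 0.05 after Benjamini-Hochberg adjustment over the 11389 genes that passed, and the procedure was tested on simulated data. Log2 CPM used a prior count of 1. Alternatives were DESeq2 1.42.0, limma 3.58.1 (voom with quality weights), 2 other scalings, 2 other filters, a replicate block, 2 covariates, a threshold of 0.1 and fewer libraries. Permutation tests used scipy 1.17.1. The members and gene lists were chosen with earlier results of these data known. All 32 members are named, with the 3 most abundant tested genes of each other list.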

Additional observations from a re-analysis of the deposited data

Results flagged for a closer look

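In 11 cases among the 60 groups of member values that varied, 1 library stood far from the others of its group. Chance gives this in about 1 group in 20 for normally distributed values. That rate does not hold for genes at 0 in most libraries, where any library with counts stands apart. Control 3 was apart in 3 genes. It was lowest for Mdm2, at 27.2 CPM against 122 CPM for the nearest other library of its group, highest for Plk3, at 16.4 against 0.888 CPM, and highest for Ddb2, at 12.4 against 1.27 CPM. Control 4 was highest for Trp53inp1, at 42.9 against 19 CPM. Rrm2b stood apart in both groups, at 42.5 against 20.4 CPM in treated 5 and 29.8 against 5.09 CPM in control 1. Sesn2 was highest in treated 1, at 61.6 against 26.9 CPM.

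The mitotic genes were seen in few libraries, so that those with counts stand apart by construction. In treated 3 Ckap2 stood at 6.33 CPM against 0 elsewhere, and Psrc1 at 5.59 against 1.11 CPM. Psrc1 was also found in control 2, at 0.99 CPM against 0 in the other controls. Gtse1 was highest in treated 6, at 3.52 against 0.736 CPM. The summed dividing cell markers stood at 27.4 to 207 CPM in the treated libraries, and their part in these values was not tested.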

How the results depend on the processing

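Under all 22 alternatives, 0 members passed the test in either direction, and 0 of all genes did except with DESeq2 (60 higher and 22 lower). DESeq2 also called Triap1 lower (adjusted p = 0.020). Adjusted p of single members ran from 0.125 (Ei24, DESeq2) to 1 over the alternatives. The direction of 11 of 28 members, all above 0, was the same under every alternative that tested them (Ccng1, Dda1, Ddb2, Ddit4, Ei24, Fas, Mdm2, Perp, Rrm2b, Trp53inp1, Zmat3). The same count was not made for all tested genes, and the alternatives share most of their libraries, so it has no background to be read against. Values not past the test changed sign, as log2 fold changes, with upper-quartile scaling (Pmaip1 -0.0059); with limma-voom (Bax -0.031, Bbc3 0.20, Pmaip1 -0.023, Polk 0.79 and Thbs1 2.62); with the replicate number as a replicate block (Bbc3 0.57, Pmaip1 -0.085, Polk 0.40 and Thbs1 0.75); with the number of detected genes as a covariate (Cdkn1a -0.044, Gadd45a 0.14, Plk2 -0.0071, Pmaip1 -0.14, Aen -0.47, Thbs1 1.65 and Mdm4 -0.039); with the identifier letters as a factor (Trp53 0.13, Cdkn1a -0.51, Btg2 0.12, Plk3 -1.19, Bax -0.76, Bbc3 0.017, Phlda3 -2.06, Sesn2 0.86 and Cd82 0.055); without control 3 and control 4 (Cdkn1a -0.070, Gadd45a 0.19, Plk2 -0.60, Bax -0.023, Bbc3 0.40, Pmaip1 -0.43, Aen -0.39, Sesn1 0.023, Tigar 6.30, Polk 0.33, Thbs1 3.58 and Brd7 -0.12). After their removal Tigar and Phlda3 had no control counts, so that their fitted values depend on the prior count. Leaving out 1 library changed a sign within these ranges: Gadd45a -0.20 to 0.32, Pmaip1 -0.33 to 0.46, Aen -0.35 to 0.81, Bax -0.085 to 0.15, Sesn2 -0.77 to 0.063, Plk2 -0.23 to 0.72, Xpc -0.072 to 0.53, Polk -0.91 to 0.87, Bbc3 -0.49 to 0.80, Sesn1 -0.42 to 0.056, Sesn3 -0.46 to 0.14. Same-numbered libraries did not deviate together (correlations of -0.03, 0.02, -0.12 and -0.04 for replicates 1 to 4), so the numbers were not taken as pairs; with the replicate block, which leaves 3 residual degrees of freedom, the median over the tested members went from 0.22 to 0.49 and 0 genes were called. The common coefficient of variation between libraries was 0.828, and intervals were widest for low members. The causes of these shifts were not tested.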
